A study of Mus musculus with 26 samples.

Results

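The genes described here are 9 members of the LIF, gp130 and FGF2 signalling system of the retina, namely Lif, Cntf, Fgf2, Lifr, Il6st, Osmr, Cntfr, Stat3 and Socs3. They were chosen by name for their role, and each was matched to 1 of 37991 Ensembl genes in the table of counts. RNA-seq was carried out on 26 libraries in 5 experiments, each with its own controls. All mice carried the rd10 mutation of Pde6b (B6.CXB1-Pde6brd10/Jrd10 in the labels), in which rods degenerate, and all were injected intraperitoneally from postnatal day 9 to 24. The labels give daily injections, and the study gave DZNep every other day in the later part. The whole retina was sequenced after DZNep (2 treated, 4 controls), UNC1999 (3 and 3), UNC0642 (2 and 2) or Romidepsin (3 and 3). DZNep and UNC1999 inhibit EZH2, a methyltransferase of histone H3 lysine 27, UNC0642 inhibits the pair of methyltransferases that act on H3 lysine 9, and Romidepsin inhibits histone deacetylases. In the fifth experiment the LSD1 inhibitor GSK2879552 was given (2 treated, 2 controls) to rd10 mice crossed with the reporter line B6.Cg-Tg(Nrl-EGFP)1Asw/J, in which rods are marked by the green fluorescent protein driven by the rod-specific Nrl promoter, and these rods were sorted before sequencing. Controls received saline, while UNC1999 was given in a vehicle of DMSO, PEG300, Tween-80 and saline, so drug and vehicle cannot be told apart there. The genotype labels of some libraries end in a running number, and groups were taken from the titles.

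LIF and CNTF are cytokines that signal through gp130, the product of Il6st, paired with the LIF receptor Lifr, and CNTF also needs the alpha subunit Cntfr. Osmr is the partner of gp130 for oncostatin M. The activated receptors recruit JAK kinases, which phosphorylate STAT3, and STAT3 switches on Socs3, whose product binds gp130 and shuts the signal down. In the injured retina LIF is known to come from Müller glia and to protect photoreceptors through gp130, and FGF2 is a growth factor that protects photoreceptors through FGF receptors and ERK.

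The libraries held 13732959 to 36354094 counted reads in whole retinas and 7289460 to 19864491 in sorted rods. The summed level of 12 rod markers was 9253 to 37477 counts per 1000000 reads (CPM) in the 12 control retinas and 54307 to 83851 CPM in the 4 libraries of rods, and that of 10 Müller glia markers, none at 0, was 5312 to 11306 CPM and 308 to 526 CPM. In the 2 control libraries of rods the median of summed markers was 172% of the retina value for cones and 51.4% for bipolar cells. It was 18.3% for microglia and 17.7% for astrocytes and gliosis. For amacrine and horizontal cells, ganglion cells, vessels, pigment epithelium and lens it was 8.02% or less. The astrocyte and gliosis list includes Edn2, an endothelin that damaged photoreceptors make. Edn2 reached 165 CPM in the rod libraries, where the whole list summed to at most 179 CPM. The median in rods was 2.38 CPM for Gfap, 1.58 for Serpina3n and 8.71 for Lcn2. The value of this list in rods is thus not a measure of glial RNA alone. Levels in the sorted rods may still include RNA of other cells. In whole retina, fewer cells of a type and less RNA per cell cannot be told apart. CPM values were scaled by the TMM factors of each comparison. The labels call libraries of a group biological replicates without saying whether each was 1 animal or a pool, and p-values measure the spread between these libraries.

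In whole retina Romidepsin was followed by a rise of Lif and Socs3, DZNep by a rise of Lifr and a fall of Osmr and Il6st, and no member passed the test after UNC1999, UNC0642 or, in sorted rods, GSK2879552. A member passed at a Benjamini-Hochberg adjusted p-value under 0.05 in the quasi-likelihood test of edgeR, adjusted over all genes tested. Of 8 members tested after DZNep, 1 was higher and 2 were lower, where 12.9% of all genes tested were higher and 9.72% lower. The count of members higher is near that share of all genes. None of these DZNep calls reached the study's fold threshold (log2 fold change of 1), and only Lifr was called with all 22 retinas in 1 fit. Of 8 tested after Romidepsin, 2 were higher and 0 lower, where 0.573% of genes were higher and 0.174% lower. After UNC1999 0 of 8 passed, against 0.501% of genes higher and 0.101% lower. After UNC0642 0 of 8 passed and in rods after GSK2879552 0 of 7, and in these comparisons 0% of all genes were called in either direction, with 1297 higher and 1110 lower at an unadjusted p under 0.05 after UNC0642 and 403 and 308 in rods. At that unadjusted level Lifr was the 1 member lower after UNC0642 and Fgf2 the 1 member lower in rods, and 0 of 8 members reached it after UNC1999. The likelihood ratio test of edgeR and DESeq2 also called 0 members in these comparisons. With its likelihood ratio test the study did report genes as changed after UNC0642 and in the sorted rods, so the share of 0% holds for the test used here. The median log2 fold change of the members tested was -0.12 after DZNep, 0.00 after UNC1999, 0.03 after UNC0642, 0.53 after Romidepsin and -0.31 in rods, where that of all genes tested lay within 0.01 of 0 in each comparison.

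**Figure D1:**
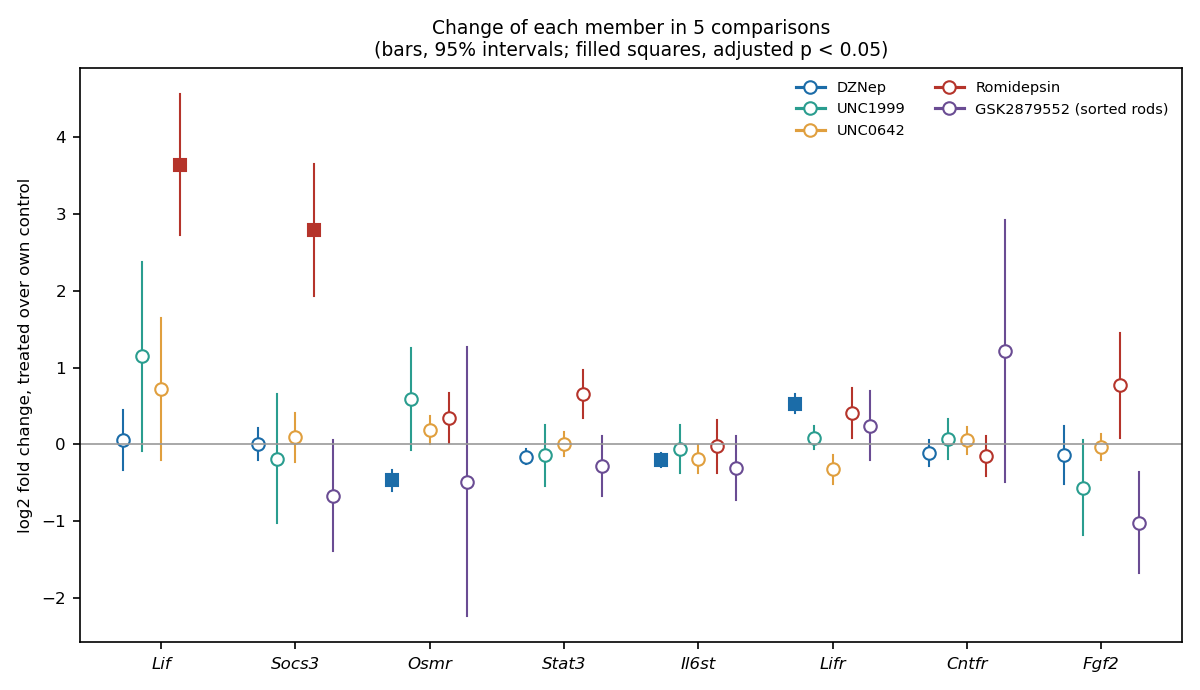
Log2 fold change of the 8 members tested, treated over own control, in each of 5 comparisons; bars are 95% intervals and filled squares passed at an adjusted p under 0.05. Lif (3.64) and Socs3 (2.79) after Romidepsin stand above all other points, and after DZNep Lifr (0.53), Osmr (-0.47) and Il6st (-0.20) are the filled squares.

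Compared per length of exon in the 12 control retinas, Il6st was the highest of the members and Lif the lowest of those whose counts can be compared. The median level was 40.5 CPM per kilobase for Il6st, 26.3 for Stat3, 23.9 for Cntfr and 18.8 for Fgf2. It was 9.67 CPM per kilobase for Osmr, 9.26 for Socs3, 6.60 for Lifr and 1.06 for Lif. Cntf was given no place in this order, because most of its exon bases are shared with another gene. Each neighbour in the order overlapped the next in its range over the 12 retinas. Socs3 ran from 4.64 to 45.1 CPM per kilobase and Lif from 0.604 to 9.43, while Lifr ran from 5.40 to 8.14.

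**Figure D2:**
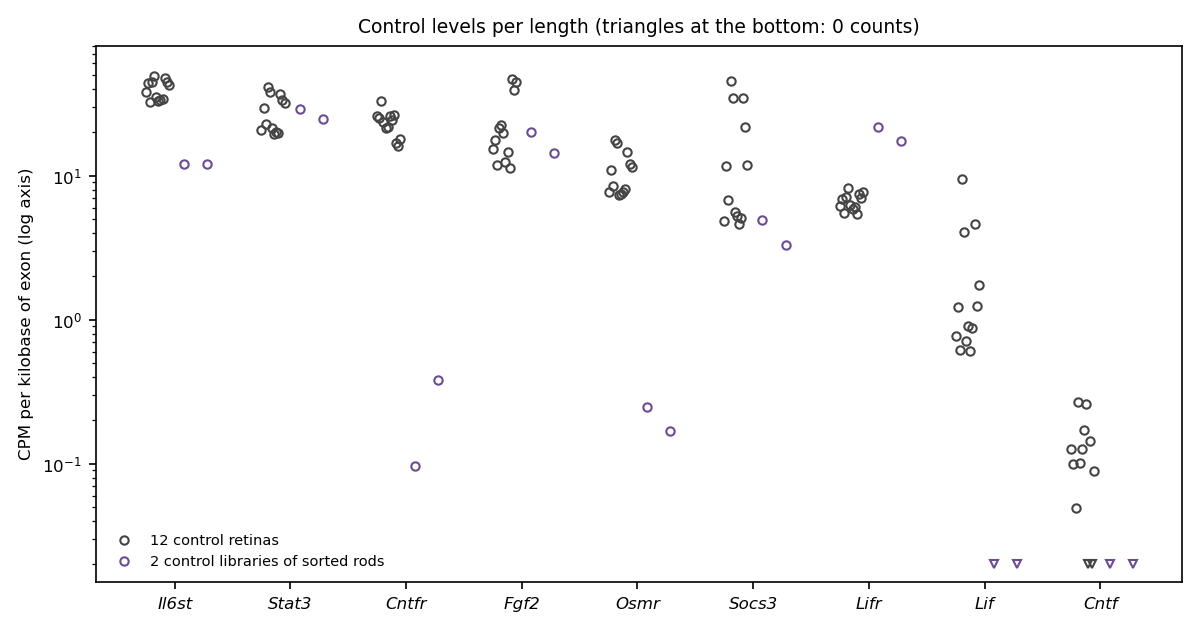
Level of each member in CPM per kilobase of exon (log axis) in 12 control retinas and 2 control libraries of sorted rods, each point 1 library, ordered by the retina median, with Cntf drawn over all its exon bases although most are shared with another gene. Lif and Cntf had 0 counts in the rods, Osmr and Cntfr lie far below their retina points there, and Lifr lies above them.

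Lif (ENSMUSG00000034394) is annotated on build NCBIM37 at chr11:4157560-4172517 on the plus strand, with no exon base shared with another gene. Among the Romidepsin controls it was at 3.35, 5.34 and 2.69 CPM, and in the treated retinas at 19.4, 65.7 and 57.7 CPM. The 3 treated libraries all lay above the 3 controls, and the least of them was treated replicate 1. Lif was 12.5-fold higher on average (log2 fold change 3.64, SE 0.47, adjusted p = 0.0277 by edgeR). The call was lost when control replicate 2 was left out (adjusted p = 0.120 by edgeR), and likewise control replicate 3 (0.122) or treated replicate 3 (0.124), with a log2 fold change between 3.34 and 4.02 whichever library was left out.

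After UNC1999 Lif was at 7.82, 22.3 and 41.5 CPM, against 20.1, 5.42 and 7.61 CPM in its controls. After UNC0642 it was at 67.1 and 29.5 CPM, against 41.0 and 17.5 CPM. The groups overlapped in both experiments, with log2 fold changes of 1.15 (SE 0.63, adjusted p = 0.312 by edgeR) and 0.72 (SE 0.47, adjusted p = 0.478 by edgeR). The change after UNC0642 ran from -0.00437 (without treated replicate 1) to 1.47 (without control replicate 1) on the log2 scale with 1 library left out, and it passed with no filter on low counts (adjusted p = 0.0268 by edgeR). After DZNep it was at 3.73 and 3.20 CPM, within the 2.63 to 3.91 CPM of the controls. In all 4 libraries of sorted rods Lif had 0 counts, and 3 counts, taken as the limit that a count of 0 allows, correspond to 0.151 to 0.412 CPM at the depth of these libraries, for counting error only.

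Socs3 (ENSMUSG00000053113, chr11:117827393-117831361, minus strand, NCBIM37) also shared no exon base with another gene. Its level in the Romidepsin controls was 14.0, 33.8 and 19.7 CPM, and in the treated retinas 71.7, 203 and 194 CPM. Again every treated library lay above every control, with treated replicate 1 the least. Socs3 was 6.92-fold higher (log2 fold change 2.79, SE 0.44, adjusted p = 0.0354 by edgeR). The call was lost on leaving out any of the 3 controls (adjusted p = 0.0583, 0.120 and 0.134 by edgeR for control replicates 1, 2 and 3) or treated replicate 3 (0.146).

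In the other experiments the groups of Socs3 overlapped in the retina. After DZNep it was at 13.6 and 16.6 CPM (controls 13.4 to 16.2 CPM), and after UNC0642 at 139 and 107 CPM (controls 130 and 100 CPM). After UNC1999 it was at 29.0, 75.5 and 68.3 CPM, against 100, 63.2 and 34.1 CPM. In sorted rods it was at 7.58 and 7.25 CPM after GSK2879552 and at 14.2 and 9.59 CPM in the controls, a log2 fold change of -0.67 (SE 0.37, adjusted p = 0.987 by edgeR).

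The controls of the 4 retina experiments already differed in these genes, at the same age and genotype. Mean Lif was 3.36 ± 0.61 CPM (SD, n = 4) in the DZNep controls and 3.79 ± 1.4 (n = 3) in the Romidepsin controls, but 11.0 ± 7.9 (n = 3) in the UNC1999 controls and 29.3 ± 17 (n = 2) in the UNC0642 controls. Socs3 took the same order, at 14.9 ± 1.1, 22.5 ± 10, 65.9 ± 33 and 115 ± 21 CPM. The summed level of 8 astrocyte and gliosis markers was 394 to 621 CPM in the DZNep controls, 423 to 1102 in the Romidepsin controls, 809 to 1500 in the UNC1999 controls and 2459 to 3041 in the UNC0642 controls. Gfap, Serpina3n and Lcn2 of this list are also among the STAT3-responsive genes described below, so the sum is not separate from the pathway. Rod markers were lowest in the UNC0642 controls, at 9253 to 9463 CPM. The part of gliosis and rod loss in the levels of Lif and Socs3 was not tested. The treated Romidepsin libraries overlapped the UNC0642 controls in both genes.

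**Figure D3:**
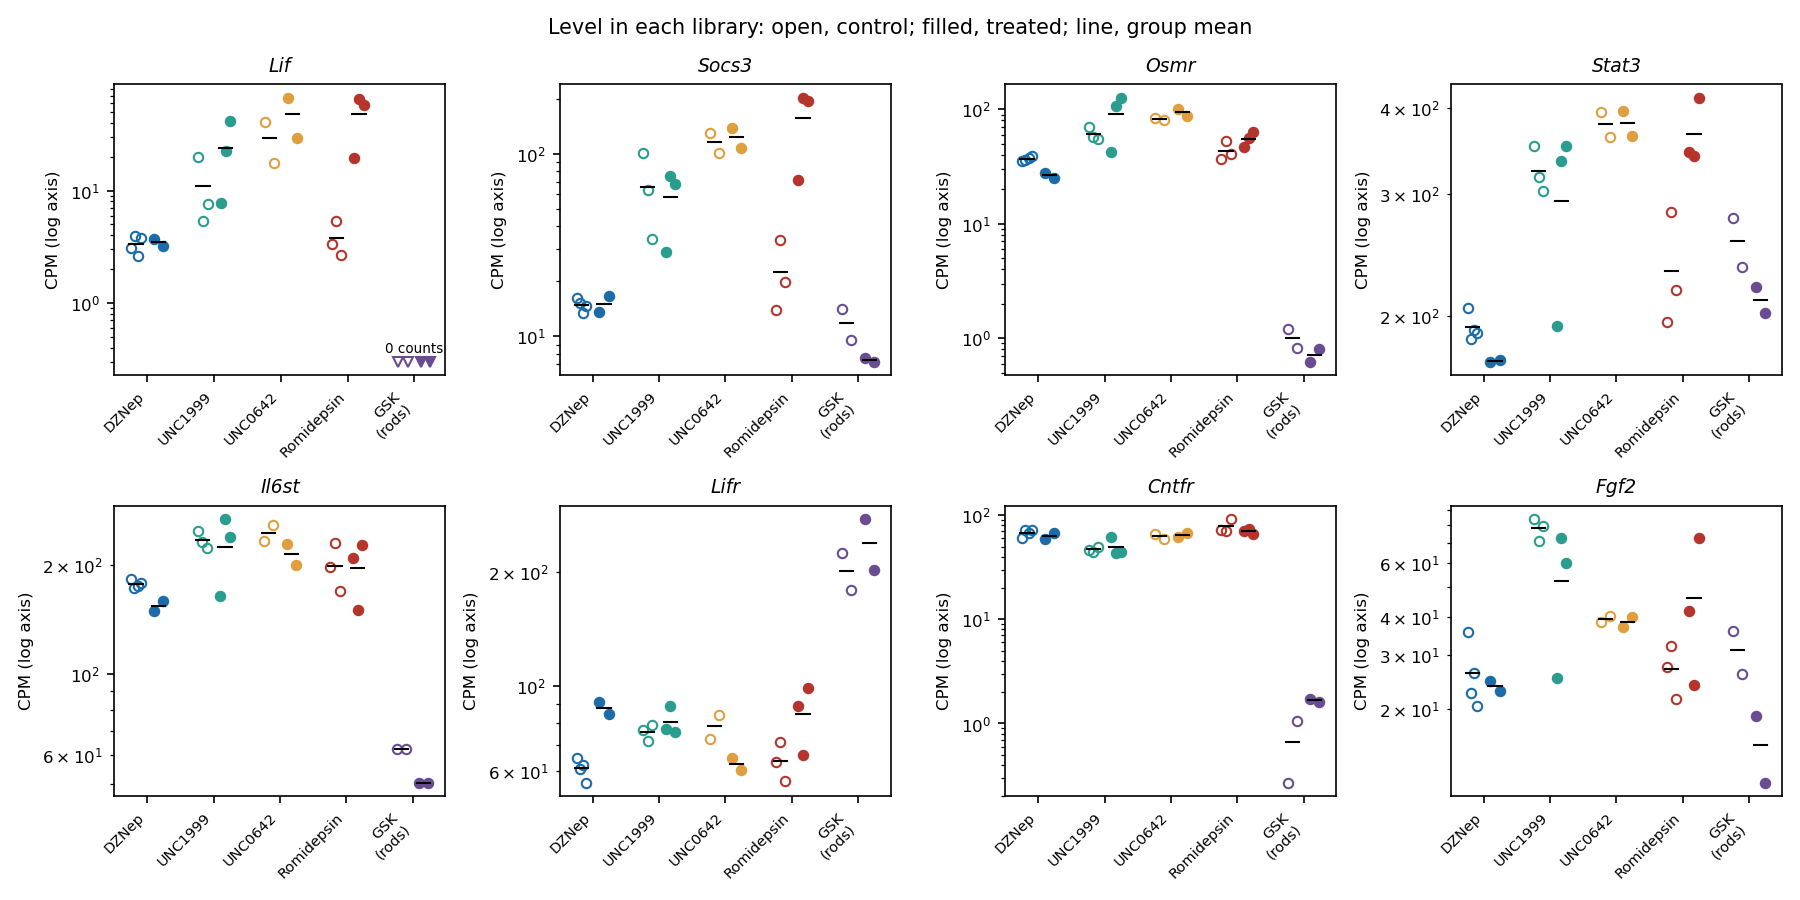
Level of 8 members in CPM (log axis) in each library of the 5 experiments; open points are controls, filled points treated, and lines the group means. The 3 Romidepsin retinas lie above their controls for Lif and Socs3, the controls of UNC1999 and UNC0642 lie above those of DZNep and Romidepsin for the same genes, and Lif had 0 counts in sorted rods.

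The sequences upstream of Lif and Socs3 are shown because these are the members that rose together after Romidepsin. RefSeq (GRCm38.p6) gives 1 start for each. The 250 bases before it were searched on both strands for TTCNNNGAA, the core of a STAT site, for TGANTCA, the AP-1 core, and for the CRE TGACGTCA, and matches are in capitals. Lif lies at chr11:4257318-4257567 on the plus strand and Socs3 at chr11:117969367-117969616 on the minus strand.
Lif: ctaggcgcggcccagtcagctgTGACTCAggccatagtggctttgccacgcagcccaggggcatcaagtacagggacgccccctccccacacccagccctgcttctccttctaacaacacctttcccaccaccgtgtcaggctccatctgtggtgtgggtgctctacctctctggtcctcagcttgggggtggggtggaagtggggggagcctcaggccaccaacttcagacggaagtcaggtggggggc
Socs3: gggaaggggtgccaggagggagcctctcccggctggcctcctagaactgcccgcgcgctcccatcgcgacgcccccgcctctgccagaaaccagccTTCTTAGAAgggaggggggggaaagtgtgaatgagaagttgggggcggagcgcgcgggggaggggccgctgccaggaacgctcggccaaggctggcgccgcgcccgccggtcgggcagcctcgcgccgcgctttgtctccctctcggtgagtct

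Socs3 held 1 STAT match, TTCTTAGAA, 154 to 146 bases before the start, and such a match was found in 7.02% of 32851 mouse promoters of this length. Lif held 1 AP-1 match, TGACTCA, 228 to 222 bases before the start, which 6.75% of promoters hold. Of the other members Cntf held an AP-1 match and none of the others held a STAT or AP-1 match, also over the 2 starts of Lifr and the 6 of Cntfr. The CRE, found in 1.55% of promoters, was in 0 of the members. Matches to so few letters are a description of the sequence and do not show binding.

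Stat3 (ENSMUSG00000004040, chr11:100746412-100800854, minus strand) encodes the transcription factor itself and shares 72 of 9527 exon bases with Stat5a on the opposite strand. After Romidepsin it was at 345, 340 and 414 CPM, above all 3 controls at 196, 283 and 218 CPM. The difference did not pass (log2 fold change 0.66, SE 0.16, adjusted p = 0.0813 by edgeR), while it passed in the likelihood ratio test (adjusted p = 0.0114) and in DESeq2 (adjusted p = 0.00811). After DZNep it was at 172 and 173 CPM, below all 4 controls (185 to 205 CPM), also without passing (log2 fold change -0.16, SE 0.051, adjusted p = 0.0522 by edgeR). After UNC1999 it was at 194, 335 and 352 CPM and its controls at 303 to 353 CPM, and after UNC0642 it was at 396 and 364 CPM, where the controls were at 394 and 363 CPM. In sorted rods it was at 220 and 202 CPM after GSK2879552 and at 277 and 235 CPM in the controls. Its control level in rods, a median of 256 CPM, was 102% of that in control retinas.

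Lifr (ENSMUSG00000054263, chr15:7079559-7147489, plus strand) carries the LIF signal into the cell together with gp130. After DZNep it was at 90.9 and 84.9 CPM, above the 4 controls at 64.8, 60.9, 62.3 and 55.8 CPM. This was a 1.44-fold rise (log2 fold change 0.53, SE 0.064, adjusted p = 0.00121 by edgeR). Its adjusted p stayed between 0.000550 and 0.0249 with each library left out in turn. After Romidepsin it was at 88.9, 66.2 and 99.0 CPM, overlapping its controls at 63.5, 71.6 and 56.5 CPM (log2 fold change 0.41, SE 0.17, adjusted p = 0.225 by edgeR). After UNC0642 it was at 64.8 and 60.6 CPM, below its controls at 72.9 and 84.1 CPM, without passing (log2 fold change -0.32, SE 0.096, adjusted p = 0.299 by edgeR), and with no filter on low counts it passed (adjusted p = 0.0360 by edgeR). After UNC1999 it was at 76.0 to 88.6 CPM, and its controls at 72.0 to 79.3 CPM.

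Lifr was the member whose control level in sorted rods exceeded that in retina most, at a median of 201 CPM against 68.2 CPM, or 295%. The median of the summed rod markers was 317% of the retina value. After GSK2879552 the rods held 274 and 202 CPM of Lifr, against 223 and 179 CPM in their controls (log2 fold change 0.25, SE 0.23, adjusted p = 0.987 by edgeR). The DZNep retinas in which Lifr rose held 56759 to 58476 CPM of rod markers, against 18687 to 31249 CPM in their controls, with 12 of 12 markers higher in the test. The part of the rod share in the rise of Lifr was not tested, and after UNC1999 rod markers were at 50567 to 68584 CPM against 19892 to 37477 CPM in its controls, beside a log2 fold change of Lifr of 0.08 (SE 0.076).

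Osmr (ENSMUSG00000022146, chr15:6763577-6824313, minus strand) fell after DZNep, to 27.8 and 25.2 CPM from 35.3, 35.8, 37.3 and 39.2 CPM. The log2 fold change was -0.47 (SE 0.070, adjusted p = 0.00247 by edgeR), and the groups did not overlap. When the spread was estimated over all 22 retinas the adjusted p was 0.336 for Osmr and 0.531 for Il6st. Müller glia markers were at 6916 to 7769 CPM in the DZNep retinas and 9892 to 10241 CPM in their controls, with 9 of 10 of them lower in the test and 0 higher. After UNC1999 Osmr was at 42.0, 106 and 127 CPM (controls 55.3 to 70.1 CPM), after UNC0642 at 102 and 86.8 CPM (controls 84.9 and 80.8 CPM) and after Romidepsin at 47.3, 55.8 and 63.2 CPM (controls 37.1 to 52.6 CPM). In control rods it was at 1.20 and 0.819 CPM, a median of 2.16% of the retina level, where the Müller glia markers were at 3.87%.

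Il6st (ENSMUSG00000021756, chr13:113265216-113297068, plus strand), which encodes the gp130 subunit shared by the whole cytokine family, was at 149 and 160 CPM after DZNep, below the 4 controls at 172 to 183 CPM. The fall was small (log2 fold change -0.20, SE 0.047, adjusted p = 0.0180 by edgeR), and without treated replicate 1 the adjusted p was 0.179. In the other experiments it did not pass. It was at 165 to 267 CPM after UNC1999 (controls 223 to 248 CPM), at 228 and 200 CPM after UNC0642 (controls 233 and 257 CPM) and at 151 to 227 CPM after Romidepsin (controls 170 to 230 CPM). In sorted rods it was at 50.2 CPM in both treated libraries and 62.2 CPM in both controls, and its control level there was 29.5% of the retina level.

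Cntfr (ENSMUSG00000028444, chr4:41604529-41644121, minus strand) did not pass in any comparison. Its level in the retinas was 43.4 to 61.2 CPM after UNC1999 (controls 44.7 to 49.9 CPM), 59.2 and 67.1 CPM after DZNep (controls 60.1 to 72.8 CPM), 62.4 and 67.9 CPM after UNC0642 (controls 59.5 and 65.8 CPM) and 66.4 to 74.1 CPM after Romidepsin (controls 70.2 to 91.7 CPM). The nominal 95% interval of its log2 fold change after Romidepsin (1.96 standard errors to each side) ran from -0.41 to 0.11. In sorted rods it had 2 to 33 counts per library, and its control level there was 0.990% of the retina level.

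Cntf (ENSMUSG00000079415, chr19:12838150-12840122, minus strand) had 0 to 7 counts in each library and was not tested. Of its 1073 exon bases, 847 are shared with Zfp91 on the same strand, so reads that fall there are ambiguous between the genes, and these counts do not measure its transcription.

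Fgf2 (ENSMUSG00000037225, chr3:37211441-37304299, plus strand) did not pass in any comparison. After Romidepsin it was at 41.8, 23.97 and 72.6 CPM, with treated replicate 2 among the controls at 27.5, 32.1 and 21.5 CPM (log2 fold change 0.77, SE 0.35, adjusted p = 0.269 by edgeR). After UNC1999 it was at 25.3, 72.4 and 60.3 CPM, and its controls were the highest of the control retinas, at 83.8, 71.1 and 79.8 CPM. After DZNep it was at 24.6 and 22.9 CPM (controls 20.5 to 35.6 CPM) and after UNC0642 at 37.0 and 40.1 CPM (controls 38.4 and 40.3 CPM).

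In sorted rods Fgf2 was at 18.9 and 11.4 CPM after GSK2879552, below its controls at 36.1 and 26.0 CPM, with a log2 fold change of -1.02 (SE 0.34, adjusted p = 0.975 by edgeR). Nudt6, which overlaps Fgf2 on the opposite strand over 242 of its 1802 exon bases, was at 27.1 and 15.8 CPM in the same treated rods and at 40.3 and 41.1 CPM in their controls. In the 22 retinas Nudt6 was at 3.01 to 11.8 CPM. Whether the counting used strand is not stated, so reads of the shared bases cannot be told apart.

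Tested directly in 1 fit of the 22 retinas, 2 of 54 member differences between treatments passed, for 9 members and 6 pairs of treatments, with Cntf untested in all 6. Each treatment effect was taken over its own controls. Both were differences between UNC1999 and Romidepsin. The effect of UNC1999 on Socs3 was lower by 2.98 on the log2 scale (difference -2.98, SE 0.58, adjusted p = 0.00802 by edgeR) and that on Stat3 lower by 0.80 (difference -0.80, SE 0.23, adjusted p = 0.0483 by edgeR). In this pair 5.11% of all genes passed. With 1 library left out at a time, Stat3 was not called in 17 of 22 fits and stayed called without control replicate 2 or treated replicate 1 of Romidepsin and without control replicate 3 or treated replicates 2 or 3 of UNC1999, while Socs3 was called in all 22.

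For Lif the effect of DZNep less that of Romidepsin was -3.58 (SE 0.95, adjusted p = 0.101 by edgeR), that of UNC1999 less Romidepsin -2.50 (SE 0.82, adjusted p = 0.0834 by edgeR) and that of UNC0642 less Romidepsin -2.93 (SE 0.89, adjusted p = 0.178 by edgeR). For Socs3 the effect of DZNep less that of Romidepsin was -2.78 (SE 0.64, adjusted p = 0.0694 by edgeR) and that of UNC0642 less Romidepsin -2.70 (SE 0.64, adjusted p = 0.0925 by edgeR). Whether these differences pass depended on the test. Lif and Socs3 for DZNep less Romidepsin and Socs3 for UNC0642 less Romidepsin passed with the likelihood ratio test (adjusted p = 0.00605, 0.00230 and 0.00992), with DESeq2 (adjusted p = 0.0105, 0.00574 and 0.0214) and with no filter on low counts (adjusted p = 0.0383, 0.0145 and 0.0366 by edgeR), and not with RLE scaling. Lif for UNC1999 less Romidepsin passed with the likelihood ratio test (adjusted p = 0.0247) and with no filter (adjusted p = 0.0469 by edgeR), and Lif for UNC0642 less Romidepsin passed with none of these 4 settings. For Lifr the effect of DZNep less that of UNC0642 was 0.86 (SE 0.19, adjusted p = 0.105 by edgeR), which passed with the likelihood ratio test (adjusted p = 0.0107) and DESeq2 (adjusted p = 0.00935). In the other pairs very few of all genes passed, namely 0.289% for DZNep less Romidepsin, 0.0232% for DZNep less UNC0642, 0.0174% for UNC0642 less Romidepsin, 0.0116% for UNC1999 less UNC0642 and 0.00579% for DZNep less UNC1999.

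Of the genes downstream of STAT3 a few passed, 2 of them higher after Romidepsin and 4 others lower after DZNep. Whether these genes differ between the treatments was not tested. The alternative settings and the fits with a library left out were examined for the members only. After Romidepsin 0.573% of all genes tested were higher, and the median log2 fold change of all genes was -0.00881. Of 16 STAT3-responsive genes all 16 had a positive log2 fold change after Romidepsin (median 0.68), and 2 passed. These were Junb, an AP-1 subunit, which rose from 44.8 ± 16 to 218 ± 75 CPM (SD, n = 3 each, log2 fold change 2.28, adjusted p = 0.0277 by edgeR), and Cebpd, an acute-phase transcription factor, which rose from 56.4 ± 15 to 194 ± 58 CPM (log2 fold change 1.78, adjusted p = 0.0308 by edgeR). Junb also answers to growth factors and stress. The gliosis markers Gfap, Serpina3n and Lcn2 of the list did not pass, and summed gliosis markers were at 902 to 1249 CPM after Romidepsin and 423 to 1102 CPM in the controls. Summed Müller glia markers were at 6504 to 7580 CPM against 9372 to 11306 CPM (9 of 10 with a negative log2 fold change, 0 passing), and their part in the rise of Lif and Socs3 was not tested.

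After DZNep 4 of the 16 fell, 0 rose, and the median was -0.33, where 9.72% of all genes tested were lower. The 4 were Il4ra (log2 fold change -0.62), Timp1 (-1.38), an inhibitor of matrix proteases, Serpina3n (-0.86), a marker of reactive glia, and Icam1 (-0.67), with adjusted p-values by edgeR between 0.00182 and 0.0323. In rods the median level of these 4 genes was 0.285 to 1.63 CPM, against 10.4 to 251 CPM in retina. In the same DZNep comparison 12 of 12 rod markers were higher and 9 of 10 Müller glia markers lower in the test, and 10 of 10 microglia markers had a negative log2 fold change with 0 passing. The part of these cell types in the fall was not tested. After UNC1999, UNC0642 and, for the 11 tested in rods, GSK2879552, 0 passed, with medians of -0.43, 0.06 and -0.33.

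**Figure D4:**
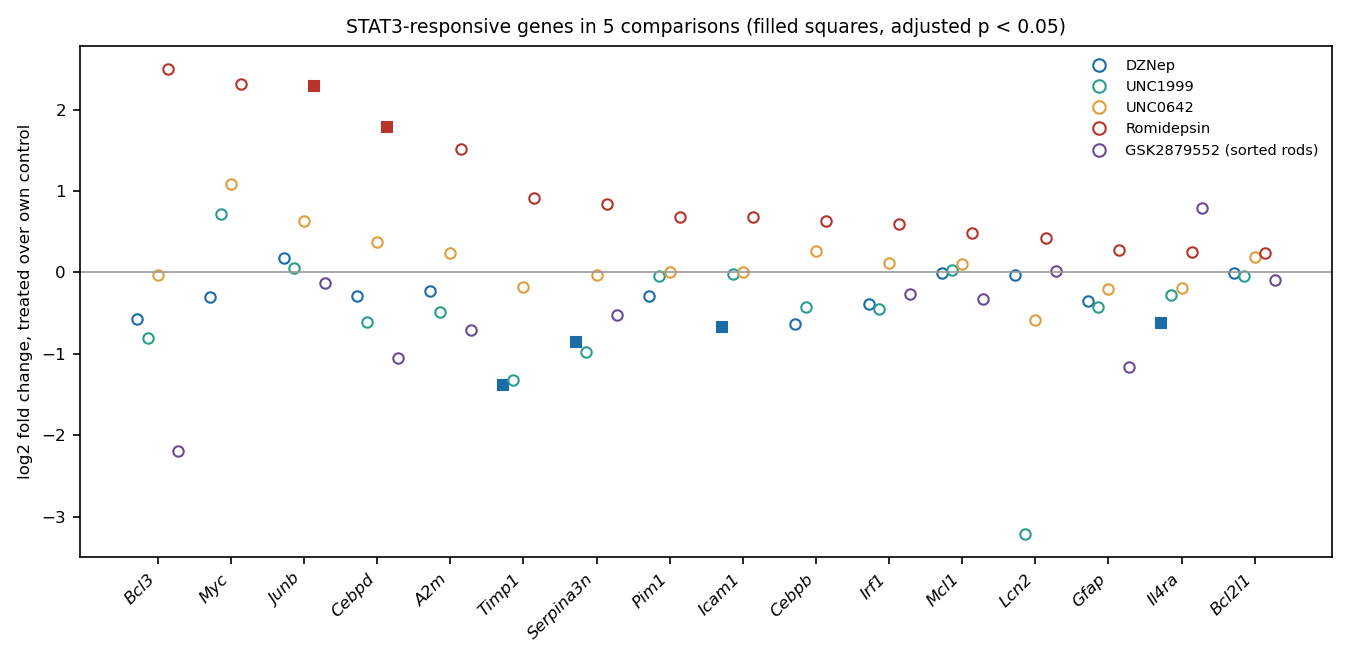
Log2 fold change of 16 STAT3-responsive genes, treated over own control, in 5 comparisons, ordered by the change after Romidepsin; filled squares passed at an adjusted p under 0.05. All Romidepsin points lie above 0, with Junb (2.28) and Cebpd (1.78) filled, and the DZNep squares of Timp1, Serpina3n, Icam1 and Il4ra lie below 0.

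Among the kinases, STATs and inhibitors of the pathway the genes that passed did so after DZNep, which was not tested against the other treatments. Of 8 JAK kinases and other STATs, 1 rose (Jak2, log2 fold change 0.21) and 3 fell (Stat6 -0.50, Stat5a -0.63 and Stat5b -0.24). Of 11 inhibitors of JAK-STAT signalling 4 rose (Pias3 0.53, Cish 0.66, Socs7 0.23 and Pias1 0.32) and 1 fell (Socs2 -0.43). Of all genes tested 12.9% were higher and 9.72% lower after DZNep. Pias3 was at a median of 567 CPM in rods against 92.7 CPM in retina and Pias1 at 406 against 69.9 CPM, and rod markers were higher in the DZNep retinas (12 of 12 in the test), whose part in these calls was not tested. Of the 8 other gp130 ligands at most 5 were high enough to test in a comparison, 0 passed in any, and Il6 had 0 to 7 counts in each retina. Of the 3 other receptor subunits at most 2 were tested and 0 passed.

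On the FGF side the feedback inhibitor Spry2 rose in 3 of the 4 retina comparisons. It was higher after DZNep (58.5 ± 1.6 against 44.7 ± 1.5 CPM, log2 fold change 0.39, adjusted p = 0.00187 by edgeR), UNC1999 (78.0 ± 12 against 47.8 ± 4.0 CPM, 0.71, adjusted p = 0.0496 by edgeR) and Romidepsin (79.1 ± 7.1 against 42.2 ± 3.8 CPM, 0.91, adjusted p = 0.0277 by edgeR). After UNC0642 every treated library was also above the controls (79.0 ± 0.91 against 61.6 ± 6.8 CPM), without passing (log2 fold change 0.36, adjusted p = 0.299 by edgeR). The calls of Spry2, that after UNC1999 being close to the threshold, were not examined under the alternative settings or with libraries left out. Egr1, an immediate-early gene downstream of ERK, fell after DZNep (log2 fold change -1.78, adjusted p = 0.000289 by edgeR) and rose after Romidepsin (log2 fold change 1.28, adjusted p = 0.0361 by edgeR). The other calls of the 13 FGF-ERK genes tested in retina were Spred3 (-0.46) and Dusp4 (0.24) after DZNep. Of the 13, 2 were higher and 2 lower after DZNep, counts near the 12.9% and 9.72% of all genes. After UNC1999 1 was higher (0.501% of all genes) and after Romidepsin 2 (0.573%). The median log2 fold change of the 13 was -0.11 after DZNep, 0.09 after UNC1999, 0.02 after UNC0642 and 0.05 after Romidepsin. Of the FGF receptors and co-receptors Fgfrl1 fell after DZNep (-0.36), and 0 of the other FGF ligands passed in any comparison.

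Among other survival signals of the retina a few genes passed after DZNep, where 12.9% of all genes were higher and 9.72% lower. Edn2, the endothelin that damaged photoreceptors make, fell (log2 fold change -0.85, adjusted p = 0.00671 by edgeR). Of 13 other neurotrophic factors tested, Nxnl1, the gene of the rod-derived cone viability factor, and Nrtn rose (0.81 and 0.73) and Gdnf fell (-1.25), counts near those shares of all genes. Nxnl1 was at a median of 549 CPM in rods against 115 CPM in retina, beside the higher rod markers of the DZNep retinas, and the part of the rod share was not tested. Whether these differ between treatments was not tested.

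Across the 22 retinas the levels of Lif and Socs3 relative to their own controls followed each other. Each library was set against the mean of its own experiment's controls on the log2 CPM scale, and Pearson's r was taken over 22 libraries from 4 experiments, which share their treatments and controls, as a description. It was 0.902 between Lif and Socs3, 0.908 between Socs3 and Stat3, 0.805 between Lif and Stat3 and 0.809 between Fgf2 and Stat3. The treated Romidepsin retinas, in which Lif and Socs3 had both passed as higher, are among these libraries. Among 15374 genes ordered by r with Lif, Socs3 was at rank 20, Stat3 at 140 and Osmr at 809. In the order by r with Socs3, Stat3 was at rank 31 and Lif at 42. Lifr, Il6st and Osmr followed Lif less closely (0.358, 0.132 and 0.647), and Cntfr went the other way (-0.393).

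**Figure D5:**
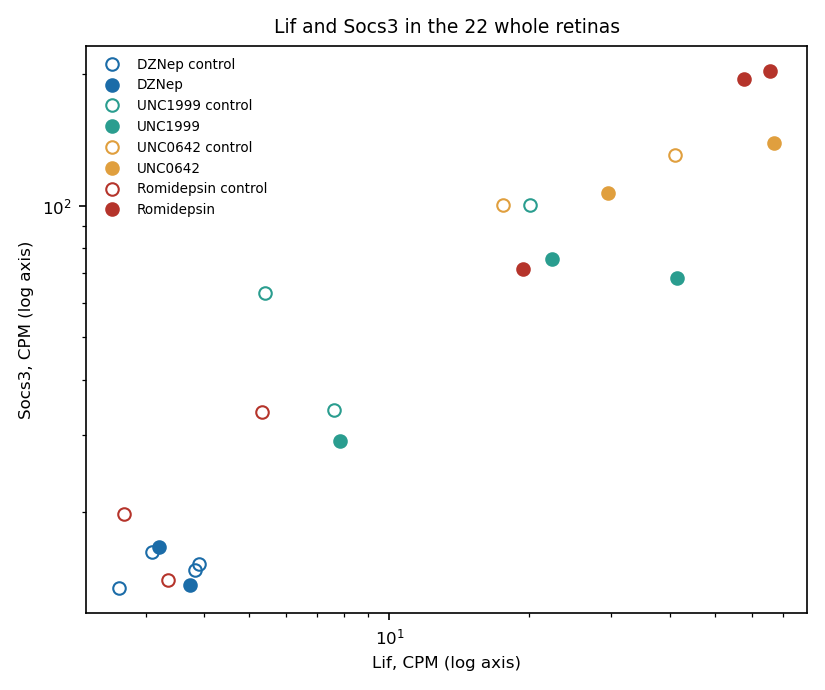
Level of Lif against Socs3 in CPM (log axes) in the 22 whole retinas, open for controls and filled for treated, coloured by experiment. The DZNep libraries and the Romidepsin controls lie at 5.34 CPM of Lif or below, and the treated Romidepsin retinas at 19.4 CPM or above.

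Of 15375 genes measured in all 4 retina experiments, those with a pattern most like Lif were Ptpn1 (r = 0.948), Adamts1 (0.945) and Zfp36 (0.941). Those most like Socs3 were Sbno2 (0.981), Junb (0.967) and Lrg1 (0.961), and those most like Stat3 were Map4k4 (0.928), Slc25a37 (0.927) and Bcl3 (0.926). Osmr was followed most closely by Flnc (0.925), Plat (0.892) and Akap12 (0.876), Lifr by Adam9 (0.954), Rlf (0.949) and Sbf2 (0.933), and Il6st by Onecut2 (0.913), Usp24 (0.871) and Itgav (0.859). For Fgf2 they were Rock2 (0.915), Supt16h (0.861) and Twf1 (0.845). The likeness was weakest for Cntfr, with Coro2b (0.803), Caly (0.795) and Dpysl2 (0.790).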

How the data were processed

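RNA-seq libraries of 22 whole retinas and 4 samples of sorted rods were analysed in 5 comparisons, with groups taken from the labels and no library shared. According to the study's methods, BBDuk trimming was followed by alignment with HISAT2 2.2.1 to build NCBIM37 and by counting per Ensembl gene with HTSeq 0.11.2. The strand setting is not given in the sources used here. The authors deposited raw read counts of 37991 genes, of which 37205 were given a symbol from GENCODE M1. The labels name an Illumina stranded mRNA kit for all libraries, whereas the study's methods name a SMART-Seq kit for the rods, so levels in rods and retina are set side by side without a test.

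Genes were filtered with filterByExpr, scaled with TMM and tested with the quasi-likelihood test of edgeR 4.0.16 (R 4.3.3) in each comparison, with Benjamini-Hochberg adjustment. The likelihood ratio test, DESeq2 1.42.0, RLE scaling, no filter, the study's fold threshold (log2 fold change of 1), a replicate block, each library left out and a fit of all 22 retinas were alternatives. Standard errors were derived from the F statistic, and nominal 95% intervals span 1.96 of them to each side, a normal quantile. No library was a copy of another of its own group (chi-square per gene of 3.72 or more in 23 replicate pairs). Libraries of different groups were not compared in this way. Levels per length used the exon bases of GENCODE M1, and likeness used log2 CPM with a prior count of 2.

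The text names the 9 members, of each pathway list the genes that passed (at most 4 per list and comparison), the 3 genes most like each member, and genes that overlap a member. Il6, Gfap, Serpina3n and Lcn2 are also named with values or as not passing, chosen after their values were seen. The members and lists were chosen with earlier results of these data known. Of the symbols in 22 lists, 1 was not matched. Further marker lists (cones, bipolar, amacrine, horizontal and ganglion cells, vessels, pigment epithelium and lens) were used as a check of the tissue only.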

Additional observations from a re-analysis of the deposited data

How the results depend on the processing

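The calls after UNC1999 and in rods were 0 under every alternative run. After DZNep the count of 3 was 0 with the study's fold threshold and 1 (Lifr) with all 22 retinas in 1 fit, and after Romidepsin the count of 2 was 4 in that fit (Lifr and Stat3 added) and ran from 0 to 2 with each library left out. After UNC0642 the count of 0 was 2 (Lif and Lifr) with no filter on low counts. Of the differences between treatments 2 passed, against 8 with the likelihood ratio test, 8 with DESeq2, 6 with no filter and 1 with RLE scaling, and 1 to 6 with each library left out. The labels do not tie same-numbered libraries to each other, and their deviations correlated at r from -0.28 to 0.23 (0.21 in UNC0642, with 2 pairs), so the numbers were not taken as pairs. With the replicate block the counts were 1 after UNC0642 (Lif, log2 fold change 0.73, adjusted p = 0.00101 by edgeR) and 1 for the differences, and Il6st after DZNep was no longer called (adjusted p = 0.119 by edgeR). Of 431 values of single members under alternatives, 24 changed sign, none of them called. Socs3 after DZNep was -0.065 with the block, and Stat3 after UNC0642 was -0.0023 with DESeq2 and -0.0013 with no filter. With each library left out in turn, log2 fold changes after DZNep ran from -0.0743 to 0.149 for Lif, -0.125 to 0.159 for Socs3 and -0.240 to 0.0474 for Fgf2. After UNC1999 they ran from -0.485 to 0.247 for Socs3, -0.210 to 0.115 for Il6st, -0.103 to 0.159 for Cntfr and -0.294 to 0.0825 for Stat3. After UNC0642 they ran from -0.0164 to 0.1297 for Cntfr, -0.0576 to 0.0670 for Stat3, -0.115 to 0.294 for Socs3, -0.0903 to 0.0242 for Fgf2 and -0.00437 to 1.47 for Lif, and after Romidepsin from -0.140 to 0.132 for Il6st. The cause of these changes was not tested. Where a group was left with 1 library, that library was assumed to vary like the others.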
